A study of Saccharomyces cerevisiae with 12 samples.

Results

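The ammonium uptake and assimilation genes of the budding yeast Saccharomyces cerevisiae described here are 8 in number, of 5656 genes that a probe set of the array named alone. They are the ammonium permease genes MEP1, MEP2 and MEP3, the glutamine synthetase gene GLN1, the glutamate synthase gene GLT1 and the glutamate dehydrogenase genes GDH1, GDH2 and GDH3. The genes were taken by name from the platform annotation, without a cut on any measured value, though earlier results of these data were known. Each of the 8 had 1 probe set, none of which carries the letter suffix that can mark shared probes, and all 8 were among the 5400 genes tested.

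Cells were the prototrophic haploid strain CEN.PK113-7D, of mating type a, kept without oxygen at steady state in chemostats, culture vessels in which the feed rate fixes the growth rate. Fresh medium replaced the culture at a dilution rate of 0.03 per hour in every group, at a constant pH, and cells were quenched in liquid nitrogen. Carbon was limiting in 2 of the 4 groups, at 12 °C and at 30 °C, and nitrogen in the other two, at the same temperatures, with all other nutrients in excess. Each group had 3 arrays from separately grown cultures. The labels do not name the nitrogen source, and a single strain was used.

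Yeast takes up ammonium through the Mep permeases of the plasma membrane. Mep2 has the highest affinity and also acts as an ammonium sensor in filamentous growth, Mep1 has a lower affinity and Mep3 the lowest. Inside the cell, the NADP-dependent glutamate dehydrogenases Gdh1 and Gdh3 join ammonium to 2-oxoglutarate to give glutamate, and glutamine synthetase, Gln1, adds ammonium to glutamate to give glutamine. Glutamate synthase, Glt1, makes glutamate from glutamine and 2-oxoglutarate, and the NAD-dependent Gdh2 runs in the breakdown direction and releases ammonium. Transcription of several of these genes is known to be held down on good nitrogen sources by nitrogen catabolite repression, which acts through GATA-type transcription factors.

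Values are array signals in linear units, and changes are differences of log2 signal between group means, given as 12 °C minus 30 °C or as nitrogen minus carbon limitation. A change was called at an adjusted p under 0.05. The arrays of the 2 temperatures did not overlap for 42.7% of all genes tested under carbon limitation and 48.9% under nitrogen limitation. Those of the 2 limitations did not overlap for 50.9% at 30 °C and 21.1% at 12 °C. The median signal of an array lay between 41.2 and 51.4, and signals below 12 were set to 12. Arrays of a group correlated at 0.952 to 0.986 across genes. Replicate 1 of carbon limitation at 12 °C was closest to an array of the other limitation, replicate 3 of nitrogen limitation at 12 °C (r = 0.9722), and among the nitrogen-limited 12 °C arrays replicate 1 lay far from the others on the third principal component (-29.2 against -2.6 and 2.2). The changes of the 8 genes that were called are therefore also given with each array left out. For the actin gene ACT1, the signal at the 3' end over that at the 5' end, a sign of RNA quality, was 1.53 ± 0.38 and 1.55 ± 0.224 at 12 °C and 1.82 ± 0.109 and 1.82 ± 0.112 at 30 °C under carbon and nitrogen limitation (SD, n = 3). The same ratio of SPT15 was 3.55 ± 0.541 and 2.94 ± 0.38 at 12 °C and 30 °C under carbon limitation and 2.54 ± 0.541 and 3.13 ± 0.109 under nitrogen limitation, a different order. The part of either ratio in the results was not tested. The labelled mating type was checked on 7 markers of a cells, whose summed signal was 7710 to 15500 over the arrays, and on 4 markers of alpha cells. Of the a-cell markers 1 rose in the cold under carbon limitation and 3 under nitrogen limitation, with ASG7 up 3.96-fold and 5.91-fold. The alpha-cell sum was 360 to 540 at 30 °C but 1410 to 1880 at 12 °C under carbon limitation and 2390 to 3400 under nitrogen limitation, mostly from the pheromone gene MF(ALPHA)1. MF(ALPHA)2 lay under the floor on all 30 °C arrays. Of the 4 alpha-cell markers 2 rose in the cold under carbon limitation and 4 under nitrogen limitation. Among all genes tested, 13.1% and 15.9% were called upward in these comparisons. The part of the a-cell and alpha-cell markers in the temperature results was not tested.

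At 30 °C, 5 of the 8 genes, MEP1, MEP2, MEP3, GLN1 and GLT1, were higher under nitrogen than under carbon limitation and none was lower. Among the 5400 genes, 26.9% passed in that comparison, 14.3% upward and 12.6% downward. At 12 °C, MEP1 and MEP2 were higher under nitrogen limitation and the other 6 genes did not pass, where 5.67% of all genes passed, 1.81% upward and 3.85% downward. Going from 30 °C to 12 °C under nitrogen limitation, 5 of the 8 genes fell (MEP1, MEP2, GLN1, GLT1 and GDH3), MEP3 rose, and GDH1 and GDH2 did not pass. In that comparison 38.2% of all genes passed, 15.9% upward and 22.3% downward. Under carbon limitation MEP3 and GLT1 rose in the cold, GDH3 fell and 5 genes did not pass, against 25.7% of all genes, 13.1% upward and 12.6% downward. The temperature effect differed between the limitations for MEP1, MEP2 and GLT1, all toward a lower level in the cold under nitrogen limitation, against 7.44% of all genes, 2.91% upward and 4.54% downward.

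The comparisons share groups: the nitrogen-limited arrays at 30 °C enter both the limitation effect at 30 °C and the temperature effect under nitrogen limitation, so a high value there moves both. Rescaling the arrays moved the split of calls over all genes. Under nitrogen limitation, 41.5% of the called genes were higher at 12 °C, and 51.7% with quantile normalization and 58.2% with median scaling, while the median change of all genes went from -0.10 to 0 and 0.08. The upward share went from 32.0% to 44.2% and 53.0% for the limitation effect at 12 °C, and from 39.1% to 52.3% and 61.6% for the difference of temperature effects. Of the calls of the 8 genes, the fall of GLN1 in the cold under nitrogen limitation was the one lost, with median scaling (-0.28, adjusted p = 0.267). With quantile normalization that fall was larger (-0.71, adjusted p = 0.000978). Because every array was brought to the same mean signal before deposit, less transcript of a gene per cell cannot be told apart from more of all other transcripts, nor from fewer cells that express it.

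**Figure D1:**
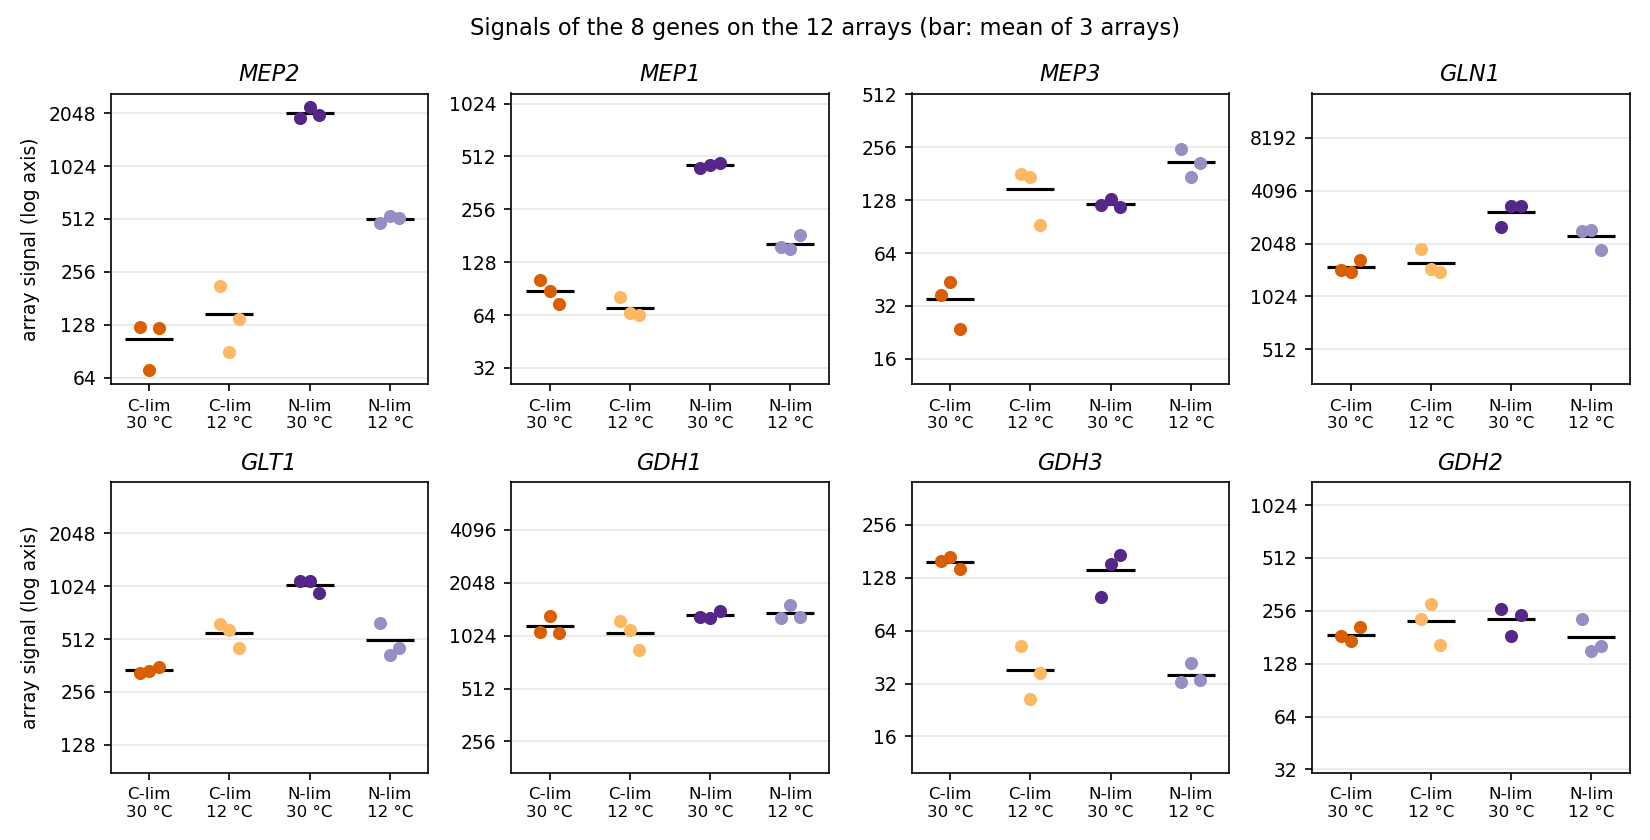
Signals of the 8 genes, 1 panel each, on a log axis whose height is the same in every panel, with 3 points (arrays) and their mean per group (C-lim and N-lim are carbon and nitrogen limitation). MEP2 and MEP1 are highest under nitrogen limitation at 30 °C (means 2042 and 457.5), MEP3 is lowest under carbon limitation at 30 °C (34.8), GDH3 is low at 12 °C under both limitations (38.3 and 36.0), and GDH1 and GDH2 vary little.

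MEP2 showed the widest range of the 8 genes, with group means that spanned 4.32 on the log2 scale, where the median gene spanned 0.78. Under nitrogen limitation at 30 °C its signals were 1913.8, 2208.8 and 2002.6, and at 12 °C they were 484.3, 533.9 and 521.1. Under carbon limitation they were 213.5, 89.2 and 137.5 at 12 °C and 124.3, 70.4 and 122.0 at 30 °C. All nitrogen-limited arrays therefore lay above all carbon-limited ones, the 30 °C arrays under nitrogen limitation stood clear of all others, and the carbon-limited groups overlapped. MEP2 was 19.9-fold higher under nitrogen than under carbon limitation at 30 °C (log2 4.32 ± 0.27 SE, adjusted p = 1.03e-08), the 9th largest of the 5400 changes in size. At 12 °C it was 3.72-fold higher (log2 1.90 ± 0.27 SE, adjusted p = 0.000952), the 12th largest. In the cold it fell 3.98-fold under nitrogen limitation (log2 -1.99 ± 0.27 SE, adjusted p = 3.6e-05). Under carbon limitation the change was 0.43 ± 0.27 (95% interval -0.13 to 1.00, adjusted p = 0.251), and without replicate 2 at 12 °C, the lowest array of its group, it passed at 0.75 (adjusted p = 0.0383, and 0.0383 to 0.779 over all alternatives). The temperature effects differed by -2.42 ± 0.38 (adjusted p = 0.00092), so that the MEP2 signal separated the limitations less at 12 °C than at 30 °C.

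MEP1 was also highest under nitrogen limitation at 30 °C, and its replicates lay closer together than those of MEP2 (pooled SD 0.16 against 0.40 log2 units). Its signals were 441.2, 459.6 and 471.6 under nitrogen limitation at 30 °C and 155.8, 151.8 and 181.8 at 12 °C. Under carbon limitation they were 101.1, 87.6 and 74.0 at 30 °C and 81.3, 65.7 and 64.0 at 12 °C. The nitrogen-limited groups were clear of each other and of the carbon-limited arrays, which overlapped between temperatures. MEP1 was 5.26-fold higher under nitrogen limitation at 30 °C (log2 2.40 ± 0.18 SE, adjusted p = 1.38e-07) and 2.33-fold higher at 12 °C (log2 1.22 ± 0.18 SE, adjusted p = 0.0016). It fell 2.81-fold in the cold under nitrogen limitation (adjusted p = 1.56e-05). The carbon-limited change was -0.31 (95% interval -0.70 to 0.07, adjusted p = 0.221), and the temperature effects differed by -1.18 ± 0.26 (adjusted p = 0.0101).

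The 12 °C limitation effects of MEP1 and MEP2 rest on a spread estimated from all 12 arrays, including those at 30 °C. Over all genes the median replicate SD at 12 °C was 0.26 and 0.28 log2 units under carbon and nitrogen limitation. At 30 °C it was 0.18 under each. Leaving out each array in turn gave 1.14 to 1.33 for MEP1 and 1.58 to 2.21 for MEP2, and both remained called each time (highest adjusted p 0.0079 and 0.00557). With only the 6 arrays at 12 °C in the fit, neither passed (adjusted p = 0.131 and 0.145, against a lowest of 0.000351 and 0.000192 over all alternatives), and 4 genes of the 5400 did.

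MEP3, the gene of the low-affinity permease, rose in the cold under both limitations, while under nitrogen limitation MEP1 and MEP2 fell. Its signals under carbon limitation were 37.0, 43.8 and 23.6 at 30 °C and 180.7, 172.9 and 92.4 at 12 °C. Under nitrogen limitation they were 119.5, 129.6 and 117.3 at 30 °C and 251.5, 174.5 and 207.0 at 12 °C. The carbon-limited 30 °C arrays were the lowest without overlap, while the other neighbours in the order overlapped (nitrogen limitation at 12 °C, carbon limitation at 12 °C, nitrogen limitation at 30 °C). MEP3 rose 4.23-fold in the cold under carbon limitation (log2 2.08 ± 0.28 SE, adjusted p = 4.97e-05), and it was 3.62-fold higher under nitrogen than under carbon limitation at 30 °C (log2 1.86 ± 0.28 SE, adjusted p = 0.000156). Its rise in the cold under nitrogen limitation was 1.71-fold (log2 0.77 ± 0.28 SE, adjusted p = 0.0364). That call was lost with no filter on dim genes and without replicate 1 or 3 at 12 °C or any one array at 30 °C under nitrogen limitation (adjusted p up to 0.10, and down to 0.0114 in other alternatives). At 12 °C the limitation effect was 0.55 (95% interval -0.03 to 1.14, adjusted p = 0.24). The difference of temperature effects, -1.31 ± 0.39, did not pass (adjusted p = 0.0527), and it passed in 5 of 21 alternatives (adjusted p 0.0127 to 0.188): array weights, the replicate block (0.0386), and without replicate 3 of carbon limitation at 12 °C, replicate 2 at 30 °C or replicate 1 of nitrogen limitation at 12 °C. With a floor of 50, which none of its carbon-limited 30 °C signals reached, the rise of MEP3 in the cold under carbon limitation was 1.51 on the log2 scale.

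GLN1, of glutamine synthetase, was higher under nitrogen limitation at 30 °C. Its signals were 2533.4, 3349.8 and 3351.3 under nitrogen limitation at 30 °C and 2406.2, 2461.7 and 1873.2 at 12 °C. Under carbon limitation they were 1896.4, 1467.8 and 1418.1 at 12 °C and 1453.8, 1414.6 and 1653.8 at 30 °C. The nitrogen-limited groups did not overlap each other, as for 48.9% of all genes, and the 12 °C groups of both limitations met at 1873.2 and 1896.4. The effect at 30 °C was 2.03-fold (log2 1.02 ± 0.17 SE, adjusted p = 0.000357). At 12 °C the effect was 0.50 ± 0.17 (adjusted p = 0.0953, and 0.0444 to 0.301 over the alternatives), and it passed without replicate 3 of nitrogen limitation (0.62). The fall in the cold under nitrogen limitation, 1.37-fold (log2 -0.45 ± 0.17 SE, adjusted p = 0.0421), was lost in 10 of 22 alternatives (adjusted p 0.000978 to 0.267), among them the fits with median scaling, with the replicate block (0.0606) and without replicate 3 at 12 °C (-0.33) or replicate 2 or 3 at 30 °C (-0.39 each). Under carbon limitation the change was 0.07 (95% interval -0.28 to 0.42, adjusted p = 0.794).

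GLT1, of glutamate synthase, was called in opposite directions with temperature under the 2 limitations. Under carbon limitation its signals were 326.3, 335.4 and 355.6 at 30 °C and 621.7, 576.8 and 454.5 at 12 °C, and under nitrogen limitation they were 1090.3, 1090.9 and 940.4 at 30 °C and 634.7, 417.9 and 458.1 at 12 °C. At 30 °C the limitations were far apart, whereas at 12 °C their ranges overlapped, between the levels seen at 30 °C. GLT1 rose 1.61-fold in the cold under carbon limitation (log2 0.69 ± 0.18 SE, adjusted p = 0.00935) and fell 2.1-fold under nitrogen limitation (log2 -1.07 ± 0.18 SE, adjusted p = 0.000239). The temperature effects differed by -1.76 ± 0.25 (adjusted p = 0.000408). Under nitrogen limitation GLT1 was 3.06-fold higher than under carbon limitation at 30 °C (log2 1.62 ± 0.18 SE, adjusted p = 7.44e-06), and at 12 °C the change was -0.14 (95% interval -0.51 to 0.23, adjusted p = 0.688). These 4 calls and the missed one held in all alternatives run.

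GDH1, of the main NADP-dependent glutamate dehydrogenase, passed in no comparison. Its signals lay between 848.8 and 1535.4 on the 12 arrays, with group means of 1155 ± 150 and 1066 ± 198 under carbon limitation and 1335 ± 63.5 and 1375 ± 139 under nitrogen limitation (30 °C then 12 °C, SD, n = 3). Groups next to each other in the order of means overlapped, while the 12 °C groups did not overlap between the limitations, as for 21.1% of all genes. The temperature intervals were -0.47 to 0.21 under carbon and -0.30 to 0.38 under nitrogen limitation on the log2 scale, and the limitation effect was 0.22 at 30 °C and 0.38 at 12 °C (95% intervals -0.12 to 0.56 and 0.04 to 0.72, adjusted p = 0.342 and 0.169).

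GDH3, of the second NADP-dependent enzyme, responded to temperature. Under carbon limitation its signals were 160.1, 167.1 and 144.2 at 30 °C and 52.3, 26.0 and 36.6 at 12 °C, and under nitrogen limitation they were 99.5, 154.3 and 171.7 at 30 °C and 32.7, 42.0 and 33.3 at 12 °C. All 12 °C arrays lay under all 30 °C arrays, and the limitations overlapped at each temperature. GDH3 fell 4.26-fold in the cold under carbon limitation (log2 -2.09 ± 0.27 SE, adjusted p = 3.36e-05) and 3.86-fold under nitrogen limitation (log2 -1.95 ± 0.27 SE, adjusted p = 4.22e-05). The difference of these effects was 0.14 with an interval of -0.65 to 0.94 (adjusted p = 0.863). With a floor of 50, which most of the 12 °C signals do not reach, the falls were 1.63 and 1.47 on the log2 scale and were still called.

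GDH2, of the glutamate-degrading NAD-dependent enzyme, passed in no comparison. Its signals lay between 151.6 and 279.7, and the group means were 187.4 ± 18.3, 223.8 ± 58.7, 228.9 ± 40.4 and 181.5 ± 43.2 (carbon limitation at 30 °C and 12 °C, then nitrogen limitation at 30 °C and 12 °C, SD, n = 3). All neighbouring groups overlapped. Its changes lay between -0.34 and 0.28 in the limitation and temperature comparisons, and the difference of temperature effects was -0.57 with an interval of -1.25 to 0.11 (adjusted p = 0.305).

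With each of the 12 arrays left out in turn, the falls in the cold under nitrogen limitation ranged from -1.57 to -1.44 for MEP1, from -2.04 to -1.93 for MEP2, from -0.59 to -0.33 for GLN1, from -1.25 to -0.94 for GLT1 and from -2.19 to -1.79 for GDH3, and the rise of MEP3 from 0.64 to 0.90. Under carbon limitation MEP3 ranged from 1.82 to 2.39, GLT1 from 0.60 to 0.82 and GDH3 from -2.35 to -1.84. The difference of temperature effects ranged from -1.29 to -1.06 for MEP1, from -2.74 to -2.11 for MEP2 and from -1.94 to -1.63 for GLT1. The limitation effect at 30 °C ranged from 2.28 to 2.51 for MEP1, from 4.05 to 4.46 for MEP2 and from 1.60 to 2.05 for MEP3. For GLN1 it ranged from 0.95 to 1.16 and for GLT1 from 1.58 to 1.69. Apart from MEP3 and GLN1 in the cold under nitrogen limitation, all these changes remained called each time.

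**Figure D2:**
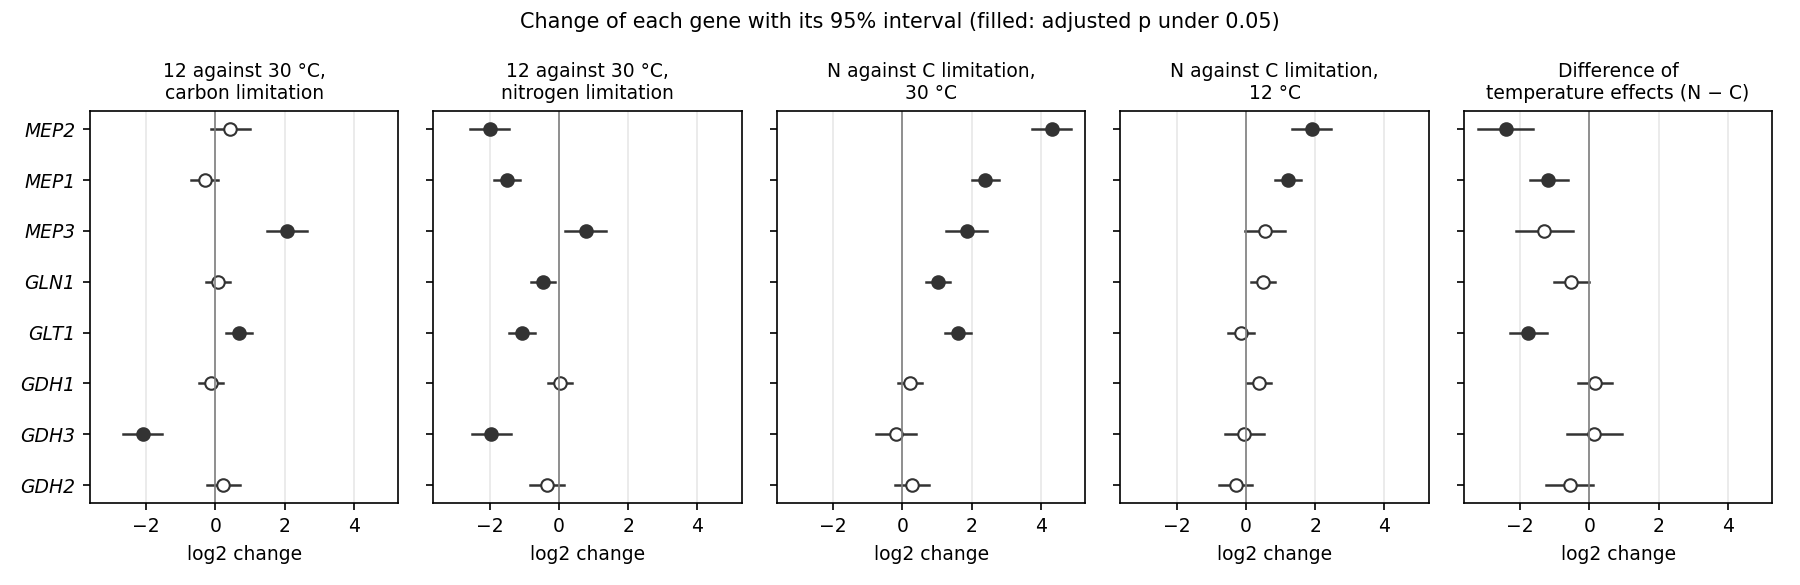
Change of each gene on the log2 scale (point) with its 95% interval (line) in the 5 comparisons, filled where the adjusted p was under 0.05. MEP2 reaches 4.32 for nitrogen against carbon limitation at 30 °C, MEP3 and GDH3 move in opposite directions in the cold under carbon limitation (2.08 and -2.09), and GDH1 and GDH2 have open points throughout.

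The sum of squares of log2 signal over the 12 arrays was divided for each gene between temperature, limiting nutrient, their interaction and replicates, as a description. The limiting nutrient held the most for MEP2, MEP1 and GLN1, with 79.5%, 72.6% and 72.6%. Temperature held 92.4% for GDH3 and 47.4% for MEP3, where the limiting nutrient held 33.7%. GLT1 was the gene with most in the interaction, 52.6%. The spread between replicates held 73.6% for GDH2 and 48.2% for GDH1, the genes that varied least, and between 1.6% and 14.2% for the others.

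**Figure D3:**
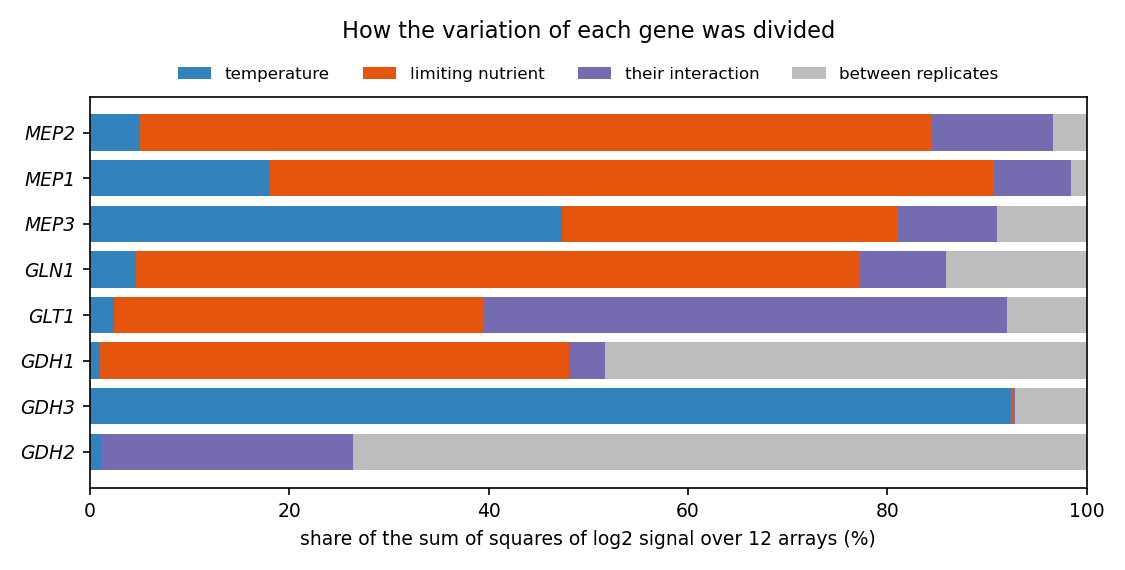
Share of the sum of squares of log2 signal over the 12 arrays (percent, horizontal axis) that went with temperature, the limiting nutrient, their interaction and the spread between replicates, 1 bar per gene. The bars of MEP2, MEP1 and GLN1 are mostly limiting nutrient, that of GDH3 is 92.4% temperature and that of GLT1 is 52.6% interaction.

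Whether genes of related function changed unequally was tested on the difference of their log2 signals within each array. There were 8 pairs and 2 effects, each the mean over the strata of the other factor, with an exact two-sided permutation test within strata over 400 arrangements, which cannot give a p below 0.005. Of the 16 tests 7 passed after adjustment. Differences between signals of 2 probe sets carry no level, so their change alone is read.

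Between the limitations MEP2 differed more than MEP1, by 1.30 on the log2 scale toward nitrogen limitation (exact permutation p = 0.005, adjusted 0.0133), and more than MEP3, by 1.90 (exact permutation p = 0.005, adjusted 0.0133). The mean temperature effect on MEP2 minus MEP1 was 0.12 (exact permutation p = 0.685). It averages a rise of the group values from 0.23 ± 0.52 at 30 °C to 0.98 ± 0.49 at 12 °C under carbon limitation and a fall from 2.16 ± 0.10 to 1.66 ± 0.15 under nitrogen limitation (SD, n = 3). In the cold MEP2 and MEP1 went down relative to MEP3, by -2.21 and -2.33 (exact permutation p = 0.005 and adjusted 0.0133 each). The difference between MEP2 and MEP3 went from 1.60 ± 0.85 at 30 °C to -0.05 ± 0.80 at 12 °C under carbon limitation, and from 4.06 ± 0.05 to 1.30 ± 0.34 under nitrogen limitation (SD, n = 3). The limitation effect on MEP1 minus MEP3, 0.60 (exact permutation p = 0.01, adjusted 0.0229), did not pass without replicate 2 or 3 of nitrogen limitation at 12 °C or replicate 3 at 30 °C (adjusted 0.06, 0.06 and 0.0571, from 0.0133 upward in other alternatives).

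Among the dehydrogenase genes, GDH1 and GDH2 rose relative to GDH3 in the cold, by 1.98 and 1.96 (exact permutation p = 0.005 and adjusted 0.0133 each). GDH1 minus GDH3 was 2.87 ± 0.12 and 3.27 ± 0.38 at 30 °C and 4.84 ± 0.50 and 5.26 ± 0.06 at 12 °C under carbon and nitrogen limitation (SD, n = 3). The pair of GDH2 and GDH1 passed for neither factor (mean effects -0.02 for temperature and -0.31 for limitation, exact permutation p = 0.945 and 0.205). Its temperature mean also averages opposite directions, from -2.62 ± 0.31 at 30 °C to -2.27 ± 0.24 at 12 °C under carbon limitation and from -2.56 ± 0.25 to -2.94 ± 0.44 under nitrogen limitation (SD, n = 3). GLN1 minus GDH1 was 0.46 higher under nitrogen limitation, at an adjusted exact permutation p of 0.05, which does not lie under the threshold (0.04 to 0.10 over the alternatives). For GLT1 minus GLN1 both mean effects were near 0 (0.00 and -0.02), but the group values were -2.15 ± 0.07 and -1.53 ± 0.16 under carbon limitation at 30 °C and 12 °C and -1.56 ± 0.31 and -2.17 ± 0.34 under nitrogen limitation (SD, n = 3), so that the direction with temperature was opposite under the limitations.

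**Figure D4:**
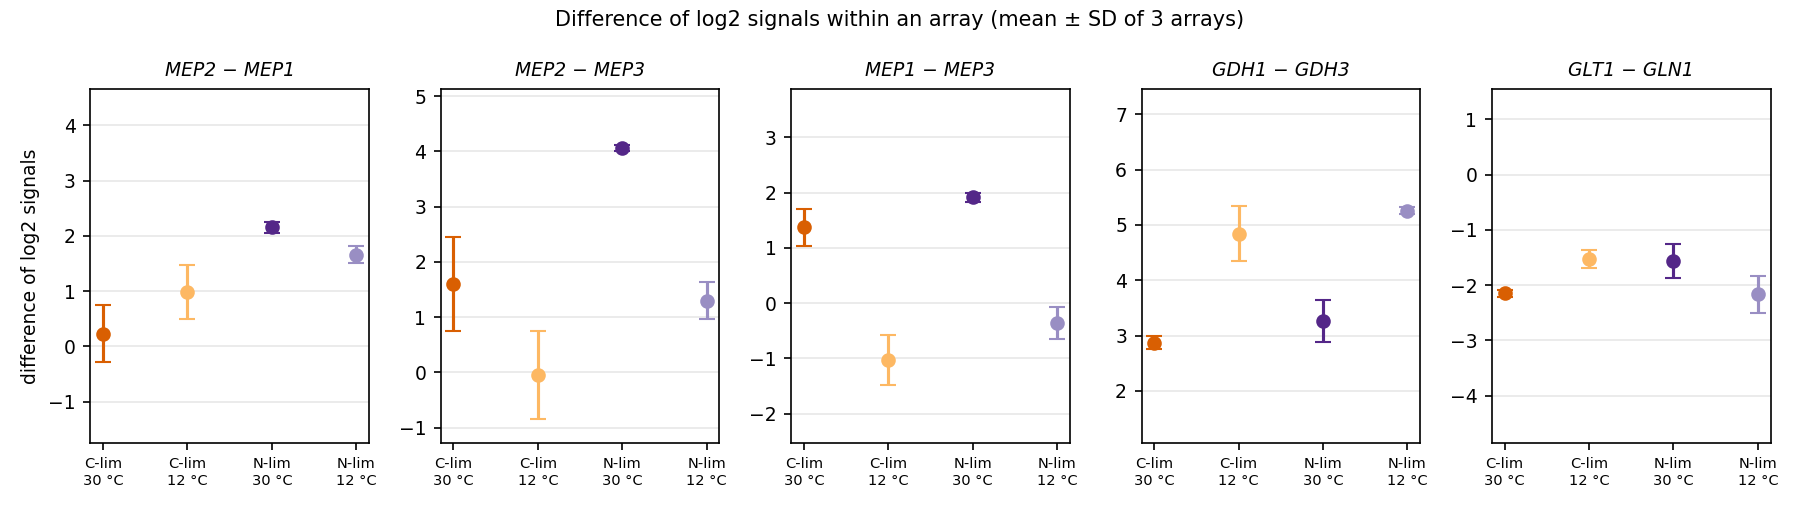
Difference of log2 signals of 2 genes within an array (vertical axis, 6.4 log2 units in every panel), as mean ± SD of 3 arrays per group. MEP2 and MEP1 fall relative to MEP3 from 30 °C to 12 °C under both limitations, GDH1 minus GDH3 is higher at 12 °C (4.84 and 5.26) than at 30 °C (2.87 and 3.27), and GLT1 minus GLN1 crosses over.

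Of 19 regulators of these genes, 4 rose and 2 fell under nitrogen against carbon limitation at 30 °C (median change 0.29, against 0.04 over all genes), and 5 fell and none rose in the cold under nitrogen limitation (median -0.41, against -0.10). The shares called, 31.6% and 26.3%, lay near or under those of all genes (26.9% and 38.2%). DAL80, a GATA-type repressor, had a mean signal of 614 ± 47.8 under nitrogen limitation at 30 °C and 48.7 ± 4.47 at 12 °C, and 30.6 ± 2.93 and 39.6 ± 20.1 under carbon limitation at 30 °C and 12 °C (SD, n = 3). The nitrogen-limited 30 °C arrays of DAL80 stood alone, and the ranges of nitrogen limitation at 12 °C and carbon limitation at 30 °C lay inside that of carbon limitation at 12 °C. It was 20.1-fold higher under nitrogen limitation at 30 °C (adjusted p = 1.38e-07) and fell 12.6-fold in the cold under that limitation (adjusted p = 5.89e-07). GAT1, a GATA-type activator, was 6.97-fold higher and fell 4.58-fold in the same comparisons (adjusted p = 2.17e-07 and 2.02e-06). GLN3, the other activator, fell by 1.06 on the log2 scale in the cold under nitrogen limitation, from a signal of 30.8 ± 2.23 to 14.8 ± 1.00, close to the floor. NPR1, a kinase that keeps the Mep permeases active, was 2.32-fold higher under nitrogen limitation at 30 °C and fell by 0.78 in the cold (adjusted p = 4.26e-05 and 0.00119).

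DAL80, GAT1 and NPR1 were also the regulators whose temperature effects differed between the limitations (-3.86, -2.04 and -1.20). At 12 °C none of them passed between the limitations (changes of 0.47, 0.76 and 0.01, adjusted p = 0.414, 0.0548 and 0.985). HAP4, of the Hap activator complex, was the regulator that did, at -0.72 (adjusted p = 0.042). Over 22 alternatives 0 to 2 regulators passed there, and the count moved in 12. HAP4 was also lower under nitrogen limitation at 30 °C (-1.19). Under carbon limitation 3 of the 19 fell in the cold, HAP3 (-0.90), HAP2 (-0.83) and GCN4 (-0.55), and none rose (median -0.21, against 0.03). The share called there, 15.8%, lay under the 25.7% of all genes. URE2, whose product holds Gln3 in the cytoplasm, had group means between 143 and 171 and passed in no comparison. GZF3, of a further GATA-type repressor, and PAR32, of an inhibitor of the Mep permeases, also passed in none.

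**Figure D5:**
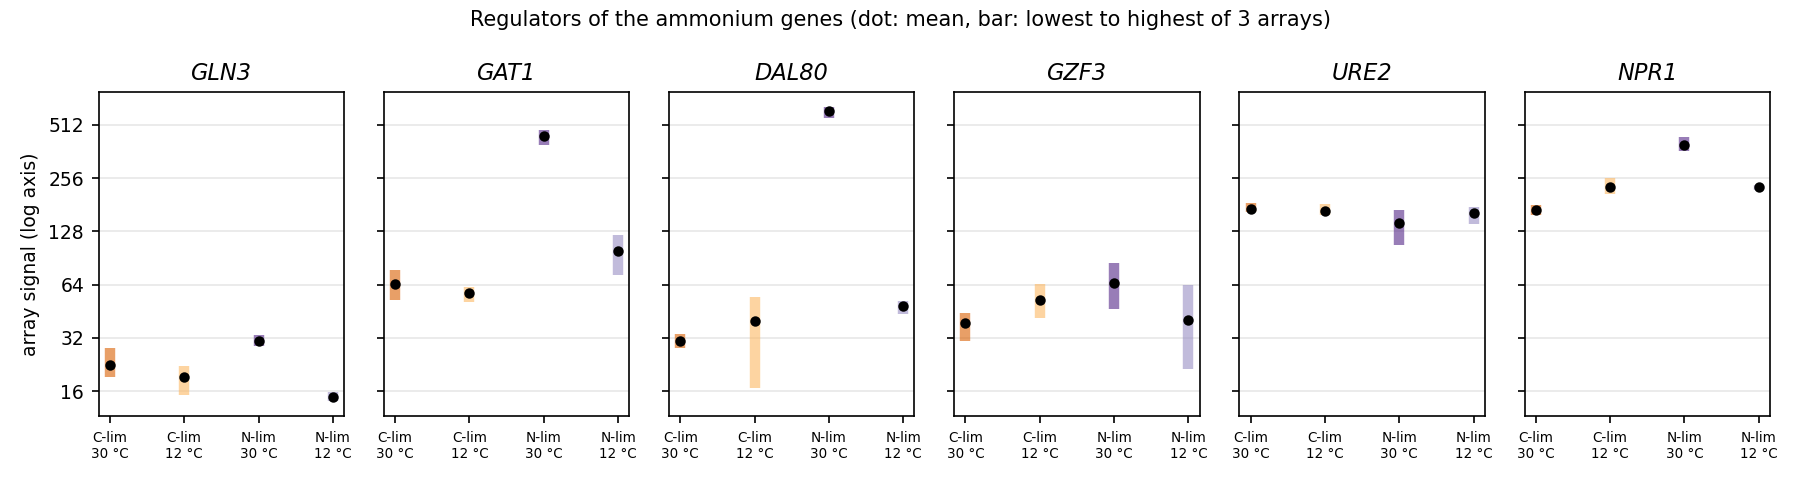
Array signals of 6 regulators on a shared log axis, with the mean (dot) and the lowest to highest of 3 arrays (bar) in each group. DAL80, GAT1 and NPR1 are highest under nitrogen limitation at 30 °C (means 614, 444 and 394), and URE2 lies between 143 and 171 in all groups.

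Genes listed under supply and transport of 2-oxoglutarate, the carbon skeleton of glutamate, leaned the other way at 30 °C. The list also holds carriers of other metabolites. Among them, CTP1, of the citrate carrier, was at -0.74 and DIC1, of the dicarboxylate carrier, at -0.91 for nitrogen against carbon limitation at 30 °C. Of 18 tested, 8 were lower and 1 higher under nitrogen limitation (median -0.52, against 0.04 over all genes). They included PYC1, of pyruvate carboxylase (-1.33), IDP1, of mitochondrial NADP-dependent isocitrate dehydrogenase (-1.19), ODC1, of a mitochondrial oxodicarboxylate carrier (-1.17), and the citrate synthase gene CIT3 (-0.91, with 2 nitrogen-limited arrays at the floor), while ODC2, of the second such carrier, was higher (1.33). At 12 °C none of the 18 passed between the limitations, where 5.67% of all genes did. In the cold, 4 fell and 2 rose under carbon limitation (median -0.20, against 0.03), with ODC1 at -1.30, CIT2 at -1.05, ODC2 at 1.62 and the dicarboxylate carrier gene DIC1 at 1.10. Under nitrogen limitation 4 rose and 1 fell (median 0.14, against -0.10), with DIC1 at 1.35, IDP1 at 1.09, ODC2 at 0.71 and CIT1, of mitochondrial citrate synthase, at -0.67. ODC1 and ODC2 were thus called in opposite directions in the cold under carbon limitation, with ODC1 going from 292 ± 55.7 to 122 ± 40.0 and ODC2 from 113 ± 13.9 to 363 ± 131 (SD, n = 3).

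Of 13 transaminases, which pass the amino group of glutamate on to other compounds or return it, 3 were higher and 2 lower under nitrogen limitation at 30 °C (median 0.16, against 0.04), among them AAT1 at 0.90, ARO8 at 0.85, SER1 at -1.12 and ALT1 at -1.10. None passed at 12 °C. In the cold 4 fell and 2 rose under carbon limitation (median 0.01) and 2 fell and 3 rose under nitrogen limitation (median 0.13). BAT2 and BAT1, of the cytosolic and mitochondrial branched-chain transaminases, were called in opposite directions under both limitations, with BAT2 at -1.80 and -1.53 and BAT1 at 0.72 and 0.70. CAR2, of ornithine transaminase, fell by 0.91 and 1.79. SER1, of phosphoserine transaminase, changed direction, from -0.62 under carbon to 0.86 under nitrogen limitation.

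Glutamine amidotransferases take the amide nitrogen of glutamine for biosynthesis. Of 15 tested, 6 were lower and 2 higher under nitrogen limitation at 30 °C (median 0.04, as over all genes), with SNO1, of vitamin B6 metabolism, at -2.29, the purine synthesis gene ADE4 at -1.42 (with 2 of 3 nitrogen-limited arrays at the floor), the CTP synthase genes URA7 at -1.20 and URA8 at 1.10, and none passed at 12 °C. In the cold 4 rose and 4 fell under nitrogen limitation (median -0.01), with URA7 at 1.88, ADE4 at 1.57 (with the same 2 arrays at the floor), QNS1 at -0.79 and URA8 at -0.76. Under carbon limitation 3 rose and 2 fell (median 0.00), with URA7 at 0.78 and SNO1 at -2.00.

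Of 10 other genes of pathways that start from or yield glutamate, PUT1, of proline oxidase, moved most. Its signal was 508 ± 27.2 under nitrogen limitation at 30 °C and between 17.7 and 31.5 in the means of the other groups. It was 4.02 higher on the log2 scale under nitrogen limitation at 30 °C (adjusted p = 1.71e-09) and fell by 4.87 in the cold (adjusted p = 2.11e-10). PUT2, of the next step of proline breakdown, followed at 1.07 and -0.88. These were the 2 of the 10 that rose at 30 °C, and none fell (median 0.04). In the cold 3 fell and 1 rose under nitrogen limitation (median 0.01) and 1 fell and 3 rose under carbon limitation (median 0.12), with the glutamate decarboxylase gene GAD1 falling both times (-0.67 and -0.90) and MET7, of folate polyglutamylation, rising both times (0.69 and 0.92). None passed at 12 °C.

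Of 11 enzymes that release ammonium, 1 was higher and 1 lower under nitrogen limitation at 30 °C (median -0.15). CHA1, of serine and threonine deaminase, read 35.2 ± 0.866 there and lay at the floor on all arrays of the other 3 groups. It was thus at least 2.93-fold higher, but it was tested only because of that group, so its calls are no separate support. The asparaginase gene ASP1 was lower (-0.96). In the cold under nitrogen limitation ASP1, FCY1 and ILV1 rose (1.08, 0.84 and 0.74), NTA1 rose at least 1.55-fold, since every 30 °C array of that limitation was at the floor, and CHA1 fell (median 0.46, against -0.10 over all genes). Under carbon limitation NTA1 rose by 0.59, from a group with 2 of 3 arrays at the floor, and GCV1 fell by 0.70 (median 0.03). At 12 °C ILV1 was higher under nitrogen limitation (1.03). Over 22 alternatives 0 to 1 genes of this list passed there, and the count moved in 11.

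The ATO family, proposed to export ammonium, had 3 genes on the array. ATO3 and ATO2 were lower under nitrogen than under carbon limitation at 30 °C, by -1.89 and -1.51, and ADY2 was higher, by 0.74, with 1 carbon-limited array at the floor (median -1.51). ATO3 had 279 ± 55.8 under carbon limitation at 30 °C, 85.2 ± 3.55 at 12 °C, and 74.7 ± 8.85 and 53.1 ± 7.89 under nitrogen limitation (SD, n = 3). It fell by 1.70 in the cold under carbon limitation, and ATO2 fell by 0.71 (median -0.71). ADY2 fell at least 2.04-fold under nitrogen limitation, to the floor on all 3 arrays (list median -0.50). ATO2 was lower under nitrogen limitation at 12 °C too (-1.14).

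The share of a list called at 30 °C between the limitations was 50% for 2-oxoglutarate supply, 38.5% for transaminases, 53.3% for amidotransferases, 20.0% for other glutamate enzymes and 18.2% for ammonium release, against 26.9% of all genes. In the cold under nitrogen limitation the shares were 27.8%, 38.5%, 53.3%, 40.0% and 45.5%, against 38.2%. In the cold under carbon limitation they were 33.3%, 46.2%, 33.3%, 40.0% and 18.2%, against 25.7%. Of the 3 ATO genes 100%, 33.3% and 66.7% were called in these comparisons, in the same order. The counts of 0 between the limitations at 12 °C are from limma. There 5.67% of all genes were called, so a count of 0 says little about lists this short. At an unadjusted p under 0.05 the counts were 3, 4, 3 and 2 for the first 4 of these lists. The share of all genes at that cut is not given here. Several counts moved with the settings. Over the alternatives the number called at 30 °C was 4 to 10 for regulators, 6 to 13 for 2-oxoglutarate supply, 5 to 9 for amidotransferases and 1 to 4 for ammonium release. In the cold it was 0 to 5 for regulators, 3 to 7 for transaminases, 3 to 7 for amidotransferases and 2 to 4 for other glutamate enzymes under carbon limitation. Under nitrogen limitation it was 2 to 7 for 2-oxoglutarate supply, 5 to 9 for amidotransferases and 3 to 6 for ammonium release.

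Genes with the most similar pattern to a member were sought by Pearson correlation of log2 signal over the 12 arrays among 1574 genes whose group means spanned at least 1 log2 unit. The arrays fall into 4 groups, so these values mostly describe group means. GAT1 (0.969), DCG1 and SUN4 (0.956 each) were closest to MEP1, and the amino acid transporter gene AVT4 (0.982), the glycerol-3-phosphate dehydrogenase gene GPD1 (0.971) and DCG1 (0.956) to MEP2. DCG1 lay near the floor under carbon limitation. For MEP3 they were ERG20, of farnesyl diphosphate synthase (0.967), NEW1 (0.950) and SHB17 (0.948), none of which was among the closest to MEP1 or MEP2. AVT4 (0.961), JIP4 (0.928) and SMP1 (0.916) were closest to GLN1, and the urea transporter gene DUR3 (0.950), VTC1 (0.948) and BUD23 (0.926) to GLT1. For GDH3 they were the transfer RNA gene SUF6 (0.972), the metallothionein gene CRS5 (0.966) and SPG4 (0.961). SUF6 lay near the floor at 12 °C under both limitations. GDH1 and GDH2 spanned less than 1 log2 unit and were not compared.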

How the data were processed

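Expression was measured on 12 Affymetrix arrays, 1 per culture, and grouped by the sample titles. What the authors deposited is 1 linear intensity (signal) per probe set and array. GCOS is the tool named in the submitters' processing notes, and the sources used here give neither its version nor its algorithm. The mean intensity after trimming 2% at each end was 150.11 to 150.15 on every array, so the arrays had been scaled before deposit. No batch or scan date was given.

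Gene names came from the annotation of the array platform and were updated by gene identifier to RefSeq symbols. Among the 9335 probe sets 6504 named 1 gene, 328 several and 2503 were not listed. Signals under 12 were raised to 12, log2 was taken, and the brightest probe set stood for a gene. Genes above 12 on at least 3 arrays were tested: 5400 of 5656. Group means of all 12 arrays were fitted with limma 3.58.1 (R 4.3.3; lmFit, contrasts, eBayes with an intensity trend) with Benjamini-Hochberg adjustment over all 5400 genes and a threshold of 0.05. The code was tested on simulated data. With 10 other settings and each of the 12 arrays left out, 22 alternatives were run. Pairs of genes were tested in Python 3.11.15, adjusted over 16 tests. The number of arrays limits the precision.

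The genes and lists were chosen with earlier results of these data known. Of 97 listed pathway genes, 8 were not matched to a probe set of 1 gene and are not reported here. Named genes were the 8 members, up to 4 called genes per list and comparison, with exceptions to a list's direction, and the 3 closest patterns. URE2, GZF3 and PAR32 were added after their values were seen. Per the labels' protocols the replicates were independently grown cultures.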

Additional observations from a re-analysis of the deposited data

Results flagged for a closer look

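The temperature effect differed between the limitations for 3 of the 8 genes and for 12 of the 89 tested genes of the pathway lists. The call was made on the fitted difference itself at an adjusted p under 0.05 (limma), which 7.44% of all 5400 genes passed. Each value is the log2 change from 30 °C to 12 °C under nitrogen limitation minus that under carbon limitation. Among the 8 genes it was -1.18 for MEP1, -2.42 for MEP2 and -1.76 for GLT1. GLT1 rose in the cold under carbon limitation and fell under nitrogen limitation, whereas MEP1 and MEP2 fell under nitrogen limitation and did not pass under carbon limitation.

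Of the regulators, DAL80 differed by -3.86, GAT1 by -2.04 and NPR1 by -1.2. PUT1, of proline oxidase, differed by -4.52. CHA1 differed by -1.55, a value that rests on 3 groups at the floor. It was tested only because of its nitrogen-limited 30 °C arrays, so its place in the count follows from that group and is no separate support. The other 7 differed in the opposite direction. They were the citrate synthase gene CIT3 at 1.06 (with signals near the floor), the mitochondrial citrate carrier gene CTP1 at 0.85, SER1 at 1.48, SNO1 at 1.75, the CTP synthase gene URA7 at 1.10, the GMP synthase gene GUA1 at 1.03 and ATO3 at 1.2. CIT3 and CTP1 lay near the threshold (limma adjusted p = 0.0281 and 0.0475). Over 21 alternatives the count of their list, 2 here, ran from 0 to 3 and moved in 14. The count for amidotransferases, 3 here, ran from 1 to 5, and that for regulators from 3 to 4.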

How the results depend on the processing

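Of 872 values of the 8 genes' changes under the alternatives, 834 kept their direction and side of the threshold, 18 lost the call, 7 gained it and 13 turned direction. Of 272 pair values, 241 kept both, and of 763 values of the 35 list counts 118, from 24 of the counts, moved by over 1.5 times. The changes that turned were all uncalled. With quantile normalization GLN1 in the cold under carbon limitation was -0.10, GDH1 under nitrogen limitation was -0.18, GDH3 between the limitations at 12 °C was 0.07 (0.06 with median scaling), GDH2 minus GDH1 with temperature was 0.17 and GLT1 minus GLN1 with limitation was 0.04. The limitation effect at 12 °C called 4 genes and 0 members of the 8 with only its 6 arrays in the fit, and 108 genes with array weights, which called 2397 genes at 30 °C. The cause was not tested.

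Leaving out 1 array at a time gave 918 to 1692 called genes for temperature under carbon limitation, 130 to 393 for limitation at 12 °C and 236 to 481 for the difference of temperature effects. Among uncalled changes that turned, GLN1 in the cold under carbon limitation ranged from -0.06 to 0.15. GDH3 ranged from -0.29 to 0.21 between the limitations at 12 °C, -0.34 to 0.05 at 30 °C and -0.11 to 0.40 for the difference of temperature effects. GDH1 ranged from -0.24 to 0.03 in the cold under carbon and -0.04 to 0.09 under nitrogen limitation. Of the pairs, MEP2 minus MEP1 ranged from -0.01 to 0.26 and GDH2 minus GDH1 from -0.13 to 0.08 with temperature, GDH2 minus GDH3 from -0.07 to 0.32 with limitation, and GLT1 minus GLN1 from -0.07 to 0.10 with temperature and -0.11 to 0.07 with limitation.

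The replicate numbers recur in every group, but the labels tie no number to a shared batch. Deviations of same-numbered arrays correlated at -0.20 to 0.18, over 0.1 in 2 of 18 pairs, and the arrays were not paired. Between differently numbered arrays the correlation reached 0.39 (replicate 2 of nitrogen limitation at 12 °C with replicate 3 at 30 °C). Whether arrays shared a batch was not tested. With the replicate block, 1304 and 1982 genes were called for temperature under carbon and nitrogen limitation, 1375 and 252 for limitation at 30 °C and 12 °C, and 344 for the difference of temperature effects. Among the 8 genes the block moved GLN1 in the cold under nitrogen limitation (adjusted p = 0.0606) and the difference of MEP3 (adjusted p = 0.0386) across the threshold and no other call. Signals near the floor limit what GDH3 and MEP3 can show.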
